A study of Mus musculus with 4 samples.

Results

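The chemokine ligands are the small secreted proteins that steer migrating cells, and their transcripts were followed here in a mouse mammary epithelial line with and without an shRNA against the glucocorticoid receptor (GR). All probes that are not controls and whose gene name on the array begins with Ccl or Cxcl and a number, or is Cx3cl1 or Xcl1, were taken. The rule uses names and no measured value. It found 35 genes of the 28146 gene names on the array, read by 44 of 41174 probes. EPH-4 is a spontaneously immortalised, non-malignant line from the mouse mammary gland. EV-50 is a clone of EPH-4 that carries the empty H1-2 vector, and shGR-19 is a clone that carries the same vector with an shRNA against GR (gene Nr3c1). Both carry a puromycin resistance marker and were kept in serum-free medium with 2 µg/ml puromycin and no glucocorticoid, so GR was without its ligand in both. Each line is 1 clone, and differences between clones are not covered by the spread between arrays. There were 4 arrays, 2 for each line, each with 300 ng of RNA labelled with Cy3. The design text gives hybridisation in duplicate and does not name separate cultures, so the p-values measure only the spread between these arrays, which may be technical.

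Chemokines are grouped by the spacing of conserved cysteines near their amino terminus into the CC, CXC, CX3C and XC families, and they act through G protein-coupled receptors on the cells they attract. Inflammatory ligands are switched on by NF-κB and interferon signalling, whereas homeostatic ligands are made constantly and place cells within tissues. In the mammary gland, epithelial cells and stroma release chemokines that draw neutrophils and macrophages during involution and infection.

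The targeted gene, Nr3c1, had scanner values of 1.81 and 1.92 under the label EV-50 (replicate 1, then replicate 2, as in all such pairs) against 1.46 and -0.03 under shGR-19 (log2 signal over the array's 75th percentile). The array labelled shGR-19 replicate 1 thus showed a small decrease, and every direction taken from the scanner files rests on the arrays as labelled. The 24439 probes kept for testing had to be well above background on both arrays of 1 line or more. Over them the arrays labelled replicate 1 differed by an SD of 0.376 in log2, against 0.691 between the arrays labelled EV-50 and 0.730 between those labelled shGR-19. The arrays labelled replicate 1 of both lines were thus more alike than arrays that share a line label, and whether each scanner file holds the sample it is labelled with was not tested. A second deposited source is the authors' value table, with log2 values centred on the median of each probe, and there the duplicates differed with SDs of 0.313 and 0.318. Nr3c1 was called in that table, at a log2 fold change of -1.94 ± 0.048 (standard error). Both sources were fitted with limma over the same kept probes, and a probe was called at a Benjamini-Hochberg adjusted p below 0.01 and more than a 2-fold difference.

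Of the 35 ligand genes, 18 had at least 1 kept probe, 22 probes in all, and 17 had none. The 14 genes that were well above background on no array were Ccl1, Ccl3, Ccl8, Ccl11, Ccl12, Ccl21a, Ccl22, Cxcl9, Cxcl11, Cxcl13, Cxcl14, Cxcl15, Cxcl17 and Xcl1. Ccl7, a monocyte attractant, was well above background on both arrays labelled replicate 1 and on neither labelled replicate 2. Cxcl2 and Ccl24 passed on the array labelled shGR-19 replicate 1 alone. The 22 probes not kept, which include second probes of Ccl19 and Cx3cl1, read from -8.35 to -4.02. Genes that passed the filter include any that are detected in 1 line only, so the counts below describe the kept probes and not the family. The array reads Ccl21a and Ccl27a, which have near-identical copies in the mouse genome, and the copies cannot be told apart here. The epithelial identity of the cells could be read from the keratins Krt8 and Krt18, which lay between 7.66 and 8.58 on all 4 arrays, while the leukocyte markers Ptprc, Itgam and Emr1 and the endothelial markers Pecam1 and Cdh5 were well above background on none.

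In the value table, 8 ligand genes were called lower in shGR-19 and 1 was called higher. Those lower were the neutrophil attractants Cxcl1, Cxcl3 and Cxcl5, the inflammatory CC ligands Ccl2, Ccl4, Ccl5 and Ccl20, and Ccl27a. The gene called higher was Cxcl12. Counted in probes, 9 of 22 ligand probes were called lower (40.9%), against 585 of all 24439 kept probes (2.39%), and 2 were called higher (9.09%), against 457 (1.87%). From the scanner files limma called 0 of the 22 ligand probes and 0 of all 24439 (0%). The smallest adjusted p was 0.930 over all probes, and at an unadjusted p below 0.05 there were 209 probes and 0 ligand probes. Over genes, each taken by its brightest probe, the median log2 fold change of the 18 ligands was -0.63 in the value table, with 14 negative, and -0.48 in the scanner files, with 15 negative. The medians over all 16757 kept genes were 0.018 and 0.016, with 47.8% and 46.7% of them negative. Fewer cells of a type and less RNA per cell cannot be told apart in such bulk RNA. With any 1 column of the value table left out, limma called none of the 9 genes, whose adjusted p then lay between 0.0269 and 0.0447. Keeping every probe on the array also left none of them called.

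**Figure D1:**
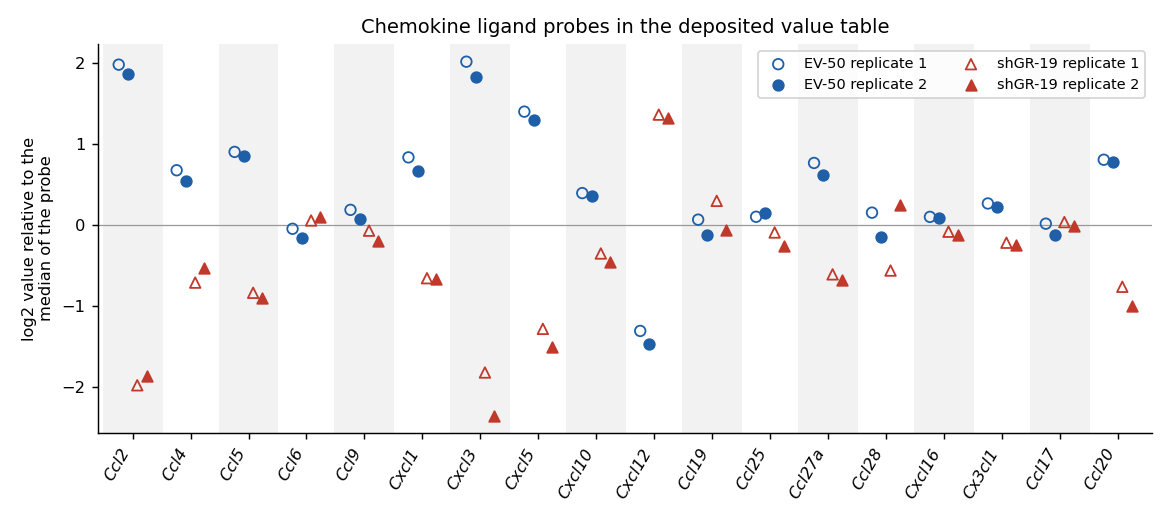
Log2 value of each of the 18 detected chemokine ligand genes in the 4 columns of the deposited table, relative to the median of the probe over the columns, with circles for EV-50 and triangles for shGR-19. Ccl2, Cxcl3 and Cxcl5 lie farthest above 0 in EV-50 and farthest below it in shGR-19, and Cxcl12 lies the other way round.

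The neutrophil-attracting CXC ligands, which act on the receptor Cxcr2, were called lower in the value table for all 3 of the genes kept, of 5 on the array. Cxcl3 (probe on chromosome 5 of mm9, from 91216694 to 91216753) had the largest fold among the ligands. In the value table it was 2.01 and 1.83 in the columns labelled EV-50 and -1.83 and -2.36 in those labelled shGR-19, and the lines did not overlap. The means were 1.92 ± 0.13 and -2.09 ± 0.38 (SD, n = 2 columns), a log2 fold change of -4.01 ± 0.22 (standard error), or 16.1-fold lower (adjusted p = 0.00413 in limma). Cxcl5 (from 91190205 to 91190264), an epithelial product that also draws neutrophils, was 1.40 and 1.29 in EV-50 and -1.29 and -1.52 in shGR-19. Its log2 fold change was -2.74 (standard error 0.11), or 6.69-fold lower, with an adjusted p of 0.00300 from limma. Cxcl1 (from 91321845 to 91321904), the mouse keratinocyte-derived chemokine KC, was 0.83 and 0.66 in EV-50 and -0.66 and -0.67 in shGR-19, or 2.66-fold lower (log2 fold change -1.41, standard error 0.078).

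On the scanner arrays these 3 probes did not separate the lines. Cxcl3 read 2.17 and -1.27 under EV-50 against 2.10 and -4.81 under shGR-19. The difference between the arrays of each label was larger than that between the label means, and the log2 fold change of -1.81 was smaller than its standard error of 2.62. Cxcl5 read 4.68 and 1.45 against 4.55 and -1.37. Cxcl1 read 1.57 and -0.92 against 1.59 and -2.35. Between the arrays labelled replicate 1 the differences were -0.08 for Cxcl3, -0.13 for Cxcl5 and 0.016 for Cxcl1, and between those labelled replicate 2 they were -3.54, -2.82 and -1.44. The log2 fold changes of all 3 turned positive, at 1.65, 1.49 and 1.26, once the array labelled shGR-19 replicate 2 was dropped. Cxcl2, a close relative that shares Cxcr2, was not kept and read -4.76, -6.38, -4.86 and -7.36 on the 4 arrays in the same order.

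**Figure D2:**
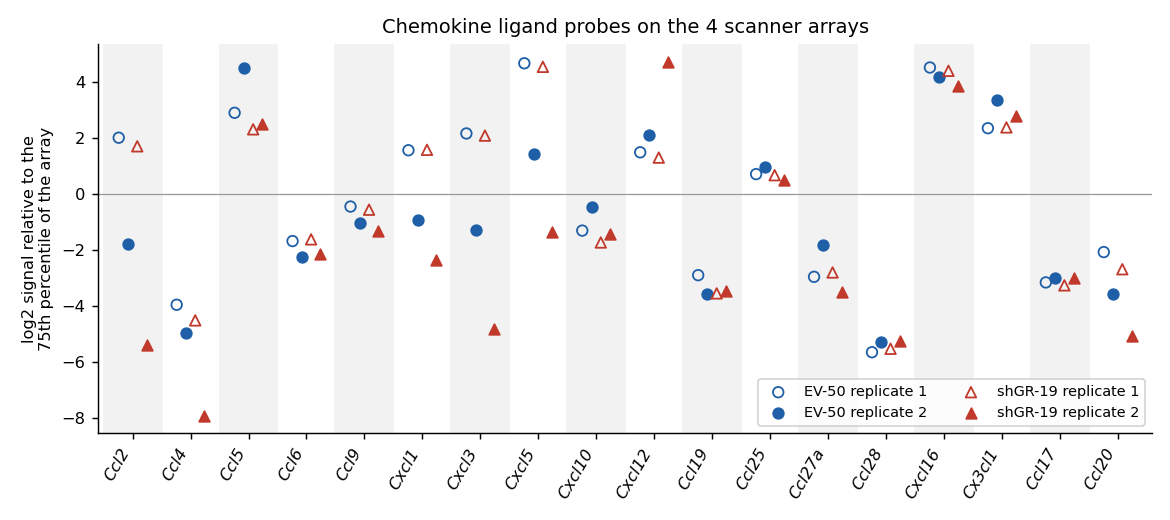
Log2 signal of the brightest kept probe of each ligand gene on the 4 scanner arrays, over the array's 75th percentile, with open symbols for arrays labelled replicate 1 and filled symbols for replicate 2. For Ccl2, Cxcl1, Cxcl3 and Cxcl5 the open symbols of both lines lie together and above both filled symbols. Heights of different genes come from different probes and cannot be set against each other.

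The 3 neighbours Cxcl1, Cxcl2 and Cxcl3 share a sequence just before their start sites, and it is shown because it is a match to the NF-κB consensus, the motif of the factor best known for inducing them. The stretches end at the base before the RefSeq start on GRCm38.p6, run 5′ to 3′ along the gene and carry the matches in capitals.
Cxcl1 (chr5:90891115-90891244, + strand): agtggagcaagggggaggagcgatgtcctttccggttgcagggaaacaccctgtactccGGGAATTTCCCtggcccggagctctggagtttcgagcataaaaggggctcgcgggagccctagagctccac
Cxcl2 (chr5:90903769-90903898, + strand): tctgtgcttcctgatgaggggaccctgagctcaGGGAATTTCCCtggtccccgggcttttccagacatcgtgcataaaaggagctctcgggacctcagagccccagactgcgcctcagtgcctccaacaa
Cxcl3 (chr5:90785971-90786100, + strand): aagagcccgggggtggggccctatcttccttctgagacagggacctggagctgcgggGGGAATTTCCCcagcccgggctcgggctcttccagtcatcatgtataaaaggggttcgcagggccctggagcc
The run in capitals is the same 11 bases in all 3 genes and holds a match on each strand. It lies from 71 to 61 bases before the start of Cxcl1, from 97 to 87 before that of Cxcl2 and from 73 to 63 before that of Cxcl3. Cxcl3 also holds the TATA box TATAAA at 30 bases before its start.

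The CC ligands of the chromosome 11 clusters were kept for 5 of 11 genes, of which 3 were called lower in the value table. Ccl2 (probe from 81850650 to 81850709 of mm9), which recruits monocytes through Ccr2, was 1.98 and 1.86 in the columns labelled EV-50 and -1.98 and -1.86 in those labelled shGR-19. The means of 1.92 ± 0.079 and -1.92 ± 0.085 (SD, n = 2) gave a log2 fold change of -3.84 ± 0.076 (standard error), or 14.4-fold lower, with an adjusted p of 0.00177 from limma, the smallest adjusted p among the ligands. Ccl5 (from 83339296 to 83339355), which attracts T cells and monocytes, was 0.90 and 0.84 in EV-50 and -0.84 and -0.91 in shGR-19, or 3.35-fold lower (log2 fold change -1.74, standard error 0.056). A second Ccl5 probe gave a log2 fold change of -1.78 and was also called. Ccl4 (from 83478052 to 83478111), which attracts monocytes and T cells, was 0.67 and 0.54 against -0.72 and -0.54, or 2.35-fold lower (log2 fold change -1.23, standard error 0.095), and it lost its call under an intensity trend with a robust prior (adjusted p = 0.0187).

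Ccl5 was the only called ligand whose labels did not overlap on the scanner arrays. It read 2.91 and 4.499 under EV-50 against 2.32 and 2.51 under shGR-19. The log2 fold change of -1.29 had a standard error of 0.58, and limma did not call it. Without the array labelled EV-50 replicate 2 it was -0.49. Ccl2 read 2.02 and -1.77 under EV-50 against 1.71 and -5.40 under shGR-19, a pattern like that of the neutrophil attractants, and its log2 fold change was -1.97 with a standard error of 2.74. It was 1.59 once the array labelled shGR-19 replicate 2 was dropped. Ccl4 read -3.95 and -4.97 against -4.51 and -7.91, and on the last of these arrays it was not well above background.

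Ccl6 and Ccl9, rodent ligands of Ccr1, were not called. Ccl6 had log2 fold changes of 0.18 in the value table and 0.09 in the scanner files, and Ccl9 of -0.27 and -0.21. Their arrays with the same label differed by 0.52 to 0.78, more than the labels did.

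Among the other inflammatory ligands, Ccl20 (chromosome 1 of mm9, from 83115500 to 83115559), an epithelial ligand that attracts Ccr6-bearing dendritic cells and lymphocytes, was 0.80 and 0.77 in the columns labelled EV-50 and -0.77 and -1.004 in those labelled shGR-19. It was 3.18-fold lower (log2 fold change -1.67, standard error 0.10, adjusted p = 0.00469 from limma). On the scanner arrays it read -2.07 and -3.57 against -2.68 and -5.07, lower under the label shGR-19 in both numbered pairs although the labels overlapped. Its log2 fold change was 0.14 once the array labelled shGR-19 replicate 2 was dropped. Cxcl10 (chromosome 5, from 92775781 to 92775840), the interferon-induced ligand of Cxcr3, was 0.39 and 0.36 in EV-50 and -0.36 and -0.46 in shGR-19. It passed the adjusted p (0.00644 from limma) and not the fold, at 1.72-fold lower (log2 fold change -0.78, standard error 0.060). Its scanner values were -1.30 and -0.48 under the label EV-50 and -1.73 and -1.42 under shGR-19, without overlap. The other interferon-induced CXC ligands, Cxcl9 and Cxcl11, were well above background on no array. Ccl17, which attracts Ccr4-bearing T cells, had log2 fold changes of 0.067 and -0.05 in the value table and the scanner files and was not called.

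The stretches before the starts of Ccl20 and Cxcl10 are shown because they hold the same consensus in other letters. Ccl20 has 1 match, from 80 to 71 bases before its start, and Cxcl10 has 2 sites, of which the farther begins at 159.
Ccl20 (chr1:83116636-83116765, + strand): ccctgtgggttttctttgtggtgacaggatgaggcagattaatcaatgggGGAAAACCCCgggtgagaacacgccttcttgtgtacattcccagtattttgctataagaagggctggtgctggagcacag
Cxcl10 (chr5:92348890-92349059, - strand): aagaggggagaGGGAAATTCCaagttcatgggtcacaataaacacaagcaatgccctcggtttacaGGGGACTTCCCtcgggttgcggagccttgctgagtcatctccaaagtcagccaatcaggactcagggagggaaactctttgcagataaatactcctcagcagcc

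Cxcl12, the homeostatic ligand that retains Cxcr4-bearing cells and is typically made by stroma, was the ligand called higher. Its brighter probe (chromosome 6 of mm9, from 117131227 to 117131286) was -1.31 and -1.47 in the columns labelled EV-50 and 1.36 and 1.31 in those labelled shGR-19. The means of -1.39 ± 0.11 and 1.34 ± 0.032 (SD, n = 2) gave a log2 fold change of 2.73 ± 0.076 (standard error), or 6.62-fold higher, with an adjusted p of 0.00226 from limma. A second probe, for another transcript of the gene, lies upstream of it from 117124474 to 117124533 and gave 1.26 ± 0.096 (log2 fold change and standard error), or 2.40-fold higher (adjusted p = 0.00631 in limma). The probes read different parts of the gene, as their first 30 of 60 bases show.
Brighter Cxcl12 probe: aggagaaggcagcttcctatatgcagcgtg
Other Cxcl12 probe: gaattaatcataaacggaagtttaaatgag
The scanner values of the brighter probe were 1.497 and 2.10 under the label EV-50 and 1.31 and 4.74 under shGR-19, and those of the other probe were -3.96 and -2.18 against -4.25 and -0.90. For both probes the array labelled shGR-19 replicate 2 was the highest, and the other array with that label was the lowest. For the brighter probe the log2 fold change was 1.22 ± 1.20 (standard error), and it became -0.49 once the array labelled shGR-19 replicate 2 was dropped.

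Some fibroblast markers were called higher along with Cxcl12. Of 9 on the array 4 were kept, and 3 of them were called higher in the value table, Col1a2 with a log2 fold change of 3.27, Vim with 1.82 and Pdgfra with 1.16, while Fn1 was at -0.64. The defining marker Dcn was well above background on no array, Lum, Thy1 and Col3a1 on 1 array each, and Col1a1 on 2. None of these was kept, so none was tested. In the value table Col1a1 was -2.80 and -2.78 in the columns labelled EV-50 against 2.78 and 2.78 in those labelled shGR-19. Its scanner values were -6.34 and -3.69 against -6.08 and 1.92. Col3a1 was 1.04 and 0.63 in the value table columns labelled shGR-19 and negative in both labelled EV-50. The signal summed over the 9 genes, in multiples of the array's 75th percentile, was 10.9 and 33.0 under EV-50 and 9.80 and 58.8 under shGR-19. Such a sum follows its brightest probes, here Fn1, which read 3.18 and 4.90 against 3.01 and 4.60, and Col1a2, which read 0.68 and 1.56 against 0.64 and 4.93, and it does not stand for the whole list. Of the epithelial markers, 10 of 11 were kept and Krt14 was called lower (log2 fold change -1.13), with sums of 1035 and 996 against 1072 and 862. Krt19, well above background on 2 arrays, was not kept and so not tested. In the value table it was 1.42 and 1.21 in the columns labelled EV-50 against -1.21 and -1.68 in those labelled shGR-19. Its scanner values were -5.09 and -2.89 against -5.14 and -6.59. Of 14 immune cell markers 8 were kept and none was called, with sums of 3.57 and 3.58 against 3.26 and 2.68. The part of these markers in the results on Cxcl12 and the other ligands was not tested. Before the start of Cxcl12 no NF-κB match was found in the 250 bases searched, of which the last 130 are shown for comparison with the neutrophil attractants.
Cxcl12 (chr6:117168405-117168534, + strand): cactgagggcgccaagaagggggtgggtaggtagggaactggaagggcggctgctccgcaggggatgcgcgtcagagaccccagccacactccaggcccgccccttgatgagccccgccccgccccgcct

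Of the remaining homeostatic ligands, Ccl27a was the only kept gene called. Ccl27a (chromosome 4, from 41716763 to 41716822), an epithelial ligand that draws Ccr10-bearing T cells to skin, was 0.76 and 0.61 in the columns labelled EV-50 and -0.61 and -0.68 in those labelled shGR-19, or 2.53-fold lower (log2 fold change -1.34, standard error 0.076, adjusted p = 0.00441 from limma). Its scanner values of -2.95 and -1.83 under the label EV-50 and -2.80 and -3.50 under shGR-19 overlapped, and between the arrays labelled replicate 1 it was 0.16 higher under shGR-19. Ccl25, the thymus and gut ligand of Ccr9, had a log2 fold change of -0.30 for both of its probes in the value table and was not called. Ccl19, the ligand of Ccr7 that guides dendritic cells and T cells to lymph nodes, was 0.15 higher in the value table and 0.27 lower in the scanner files, within its error in both (standard errors 0.16 and 0.31). Ccl28, a mucosal ligand made by the lactating gland, was at -0.16 in the value table with a standard error of 0.33. It read from -5.65 to -5.24 and was well above background on 3 arrays.

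The membrane-bound ligands Cxcl16 and Cx3cl1, which hold leukocytes by adhesion and are shed as soluble attractants, were not called. Cx3cl1 was 0.26 and 0.22 in the columns labelled EV-50 and -0.22 and -0.25 in those labelled shGR-19, 1.39-fold lower with an adjusted p of 0.00954 from limma, and so below the fold. Cxcl16 was 1.15-fold lower (adjusted p = 0.0501 from limma), and its second probe gave a log2 fold change of -0.34. On the scanner arrays Cx3cl1 read 2.36 and 3.36 against 2.39 and 2.79, and Cxcl16 read 4.53 and 4.19 against 4.41 and 3.88. Cxcl16 thus varied by 0.65 at most over the 4 arrays, whereas Cxcl5 varied by 6.05.

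Many ligand probes differed by more than 2-fold between arrays with the same label. Between the arrays labelled EV-50, 6 of 22 ligand probes were more than 2-fold lower on replicate 2 (4.55% of all kept probes) and 5 were more than 2-fold higher (6.54% of all). Between those labelled shGR-19, 6 were lower (6.2% of all) and 2 were higher (5.74% of all). Cxcl3 differed by -3.45 and -6.91 on the log2 scale within the labels EV-50 and shGR-19, Ccl2 by -3.79 and -7.12, and Cxcl5 by -3.23 and -5.92. Ccl5 differed by 1.59 and 0.19, so the ligands called lower in the value table did not all move the same way between duplicates.

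**Figure D3:**
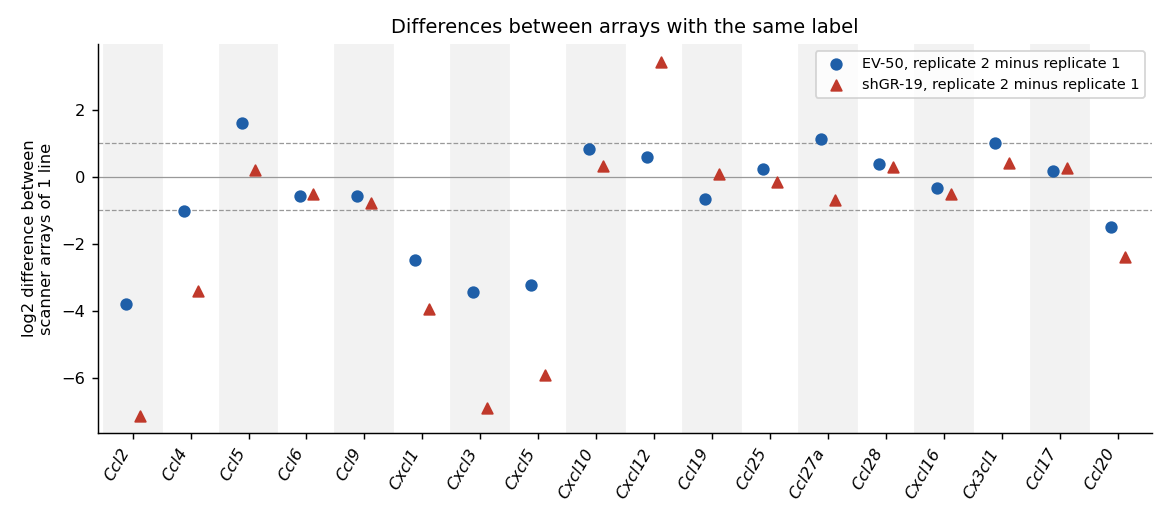
Log2 difference between the 2 scanner arrays of each label, replicate 2 minus replicate 1, for each ligand gene, with circles for EV-50 and triangles for shGR-19 and dashed lines at a 2-fold difference. Ccl2, Ccl4, Cxcl1, Cxcl3, Cxcl5 and Ccl20 lie below the lower line in both, Ccl4 only just for EV-50 at -1.02. Above the upper line lie Cxcl12 for shGR-19, at 3.43, and Ccl5, Ccl27a and Cx3cl1 for EV-50, at 1.59, 1.13 and 1.004.

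Taken pair by pair, the arrays labelled replicate 1 had 0 ligand probes more than 2-fold lower under the label shGR-19 (1.11% of all kept probes) and 0 more than 2-fold higher (2.46% of all). The arrays labelled replicate 2 had 9 ligand probes more than 2-fold lower (3.16% of all) and 2 more than 2-fold higher (2.37% of all). Over the 4 arrays, 5 ligand probes had both shGR-19 values below both EV-50 values (6.14% of all kept probes), namely both Ccl5 probes and 1 each of Cxcl10, Ccl25 and Cxcl16, and 0 had them above (11.7% of all). Across the 18 genes, the line difference of the value table correlated at 0.108 with that of the scanner pair labelled replicate 1 and at 0.961 with that of the pair labelled replicate 2. By their labels both sources hold the same samples, and genes are not independent replicates. Against the pair labelled replicate 2, the value table differed most for Ccl4, at -1.23 in the table and -2.94 between these arrays, of which 1 was not well above background. Against the pair labelled replicate 1 it differed by up to 3.93, for Cxcl3.

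**Figure D4:**
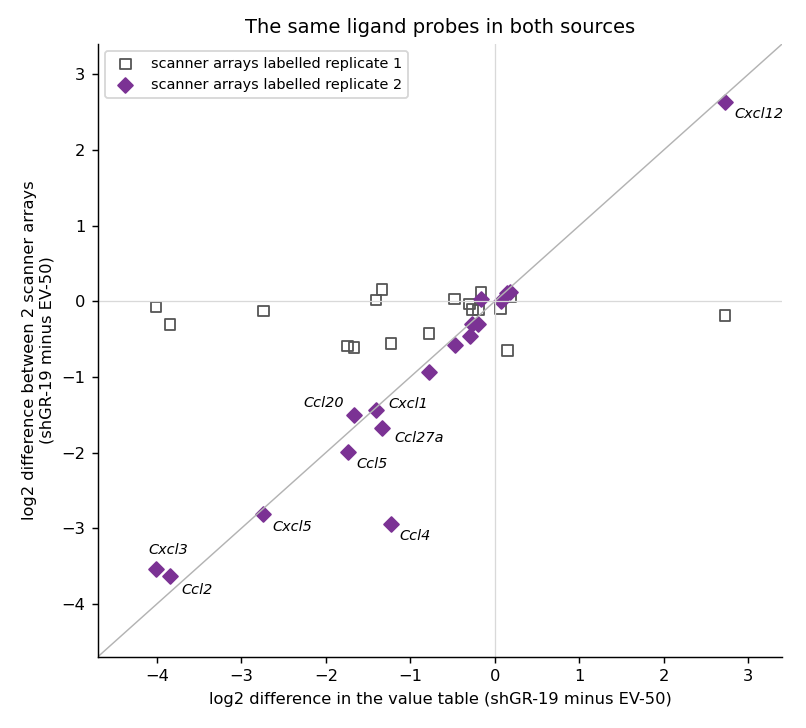
Log2 difference between shGR-19 and EV-50 for each ligand gene in the value table (horizontal axis) and between 2 scanner arrays of the same replicate number (vertical axis), with open squares for replicate 1, filled diamonds for replicate 2 and a line where both axes are equal. The diamonds follow the line except for Ccl4, and the squares stay between -0.65 and 0.16.

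Of 18 receptor genes for these ligands, 8 had a kept probe and 9 were well above background on no array, among them Cxcr2, the receptor of Cxcl1, Cxcl3 and Cxcl5, Ccr2, that of Ccl2, and Ccr1, which binds Ccl6 and Ccl9. Of the 8 kept, 2 were called higher in the value table and none lower. Ccr9, the receptor of Ccl25, had a log2 fold change of 2.37 there against 0.36 in the scanner files, where it read from -5.35 to -4.73 and was well above background on 3 arrays. Cxcr3, the receptor of Cxcl10, had 1.88 there, and it read -3.86 and -5.07 under EV-50 against -3.74 and -3.58 under shGR-19. Cxcr4, the signalling receptor of Cxcl12, was at 0.07 (standard error 0.42), and Ackr3, its scavenging receptor, at -0.18. Ccr6 and Cx3cr1, the receptors of Ccl20 and Cx3cl1, had log2 fold changes of 0.32 and 0.53 and were not called. None of the 4 atypical receptors kept was called.

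Of the factors known to induce inflammatory chemokines, 13 of 14 were kept and 12 of them had negative log2 fold changes in the value table, with a median of -0.49. Those called lower were 3 of the interferon branch, Irf7 with -3.80, Irf9 with -1.66 and Stat2 with -1.04. None of the NF-κB genes was called, with Relb at -0.61, Nfkb1 at -0.50, Nfkb2 at -0.49 and Rela at -0.20. Among genes of mRNA decay and feedback, 6 of 7 were kept and Dusp1, a phosphatase that ends MAP kinase signalling, was called higher at 1.47. Of the proteases that trim or shed chemokines, 6 of 9 were kept and Mmp2, which cleaves Cxcl12, was called higher at 2.31, while its scanner log2 fold change was 0.12 with a standard error of 0.75. All 9 genes for heparan sulfate chains and their carriers, on which chemokines are held at cell surfaces, were kept and none was called. From the scanner files no gene of these lists was called.

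**Figure D5:**
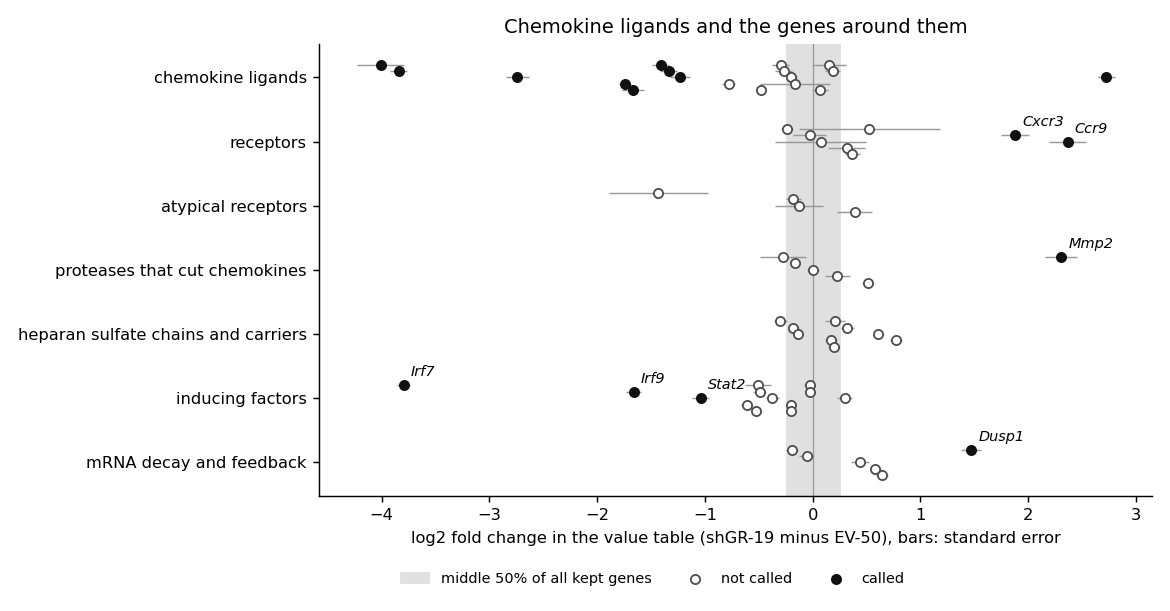
Log2 fold change in the value table (horizontal axis) of the kept chemokine ligands and of the kept genes of 6 lists around them, with the standard error as bars, filled points for called genes and a grey band from -0.24 to 0.25 for the middle 50% of all kept genes. Among the ligands 8 filled points lie below 0 and 1 above, and the receptors have 2 filled points, both above 0.

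The promoter table of RefSeq held 25 of the 35 ligand genes. The NF-κB consensus was searched in the 250 bases before the start, on both strands, with overlapping matches counted once. It was present for 7 of these 25 genes, in 7 of their 28 promoters and in 7.25% of all 32851 promoters. The genes with a match were Ccl1, Ccl9, Ccl20, Cxcl1, Cxcl2, Cxcl3 and Cxcl10. A match was present for 3 of the 5 called genes with a promoter, for 2 of the 8 kept and not called and for 2 of the 12 with no kept probe. A link between the motif and the calls was not tested on these few genes. The TATA box TATAAA, also searched on both strands, was present for 9 of the 25 genes. It was in 9 of their 28 promoters and in 12.4% of all promoters. A match in these letters is a description of the sequence and does not show binding. The called genes Ccl2, Ccl4, Ccl5 and Cxcl5 have no entry, nor has Cxcl16, which was kept and not called.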

How the data were processed

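RNA of 4 samples, 2 labelled EV-50 and 2 labelled shGR-19, was hybridised to Agilent Whole Mouse Genome arrays on 1 slide in 1 scan, which leaves no slide or scan batch to fit. The authors deposited the scanner intensity of each spot, background-subtracted by Agilent Feature Extraction 10.5.1.1 (the version per the submitters' processing notes). A second file that the authors deposited holds log2 values from GeneSpring and is centred on the median of each probe. The column medians of that table were 0.076 and 0.038 for EV-50 and -0.056 and -0.063 for shGR-19. Its scaling before the centring is not known here, and its direction was taken from the column names and is that of Nr3c1.

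Scanner signals were scaled to the 75th percentile of their array and taken to log2. Control spots and outlier spots (74 to 139 per array) were left out, spots of a probe were averaged, and no spot was saturated. Each array had 23290 to 27358 spots well above background, and precision is limited by the number of arrays. Kept probes were those well above background on both arrays of 1 line or more. Both sources were fitted with limma 3.58.1 (lmFit and eBayes) in R 4.3.3, with Benjamini-Hochberg adjustment over all kept probes, and called at an adjusted p below 0.01 and more than a 2-fold difference. The fit was tested on simulated data. Alternatives covered background correction, normalization, scaling, filters, the variance model (statmod 1.5.0), the test, the threshold, the replicate number as a block, and each array left out. Where an array was left out, its lone partner was taken to have the spread of the other line.

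Values are given for every ligand with a kept probe, the brightest probe standing for a gene. Genes of the other lists are named when called in either source or when they are receptors of a named ligand. Given beyond that rule are Rela, Relb, Nfkb1, Nfkb2, Mmp9, Cklf, Pf4, Fn1, Col1a1, Col3a1, Krt8, Krt18, Krt19 and Lum. The detection of cell type markers is also given beyond it. Members and lists were chosen with earlier results of these data known. Of the receptor list, 1 gene is not reported here. Coordinates are those of mm9 in the array's annotation. Of 38 transcripts, 35 matched RefSeq, whose promoters are on GRCm38.p6.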

Additional observations from a re-analysis of the deposited data

How the results depend on the processing

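From the scanner files, 0 ligand probes were called under every alternative fitted to them. Taking the value table instead gave 11 ligand probes and 1042 of all probes, and the arrays labelled replicate 2 alone, compared with no test, gave 11 and 1352 past 2-fold, against 873 of all probes for those labelled replicate 1. Both of these pairwise settings were chosen after seeing the data. Over all probes an unadjusted p below 0.01 gave 35 and a plain equal-variance test without adjustment gave 6. In the value table, keeping all probes of the array left 43 of all probes and 0 ligand probes called, and the plain test with adjustment left 15 and 0. Leaving out 1 array gave 0 to 0 calls in both sources, for all probes and for ligand probes, while 9068 to 9828 probes and 15 to 16 ligand probes of the value table had an unadjusted p below 0.05. With the replicate number as a block (replicate block), 0 of all probes and 0 ligand probes were called in either source, with a smallest adjusted p of 0.0293 in the value table. The labels do not say what the number pairs, and the deviations of same-numbered samples correlated at 0.574 in the scanner files and 0.056 in the value table. Some of these settings put fewer samples or more probes into the fit, and the cause of the changes was not tested.

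Directions that turned concerned small values or single arrays. On the scanner files Ccl17 was 0.012 after quantile normalization and 0.067 in the value table, Ccl19 was 0.15 in the value table and 0.10 on the arrays labelled replicate 2, and Ccl28 was -0.020 after normexp correction and -0.16 in the value table. On the arrays labelled replicate 1 alone, Ccl27a was 0.16, Cx3cl1 0.028, Cxcl1 0.016 and Cxcl12 -0.19. With 1 scanner array left out the log2 fold changes ranged from -5.53 to 1.59 for Ccl2, from -2.68 to 1.26 for Cxcl1, from -5.26 to 1.65 for Cxcl3, from -4.43 to 1.49 for Cxcl5, from -0.49 to 2.94 for Cxcl12 and from -2.25 to 0.14 for Ccl20. The ranges were -0.78 to 0.23 for Cx3cl1, -0.47 to 0.054 for Cxcl16, -0.60 to 0.18 for Ccl9, -0.20 to 0.38 for Ccl6, -0.11 to 0.26 for Ccl28, -0.19 to 0.084 for Ccl17 and -0.61 to 0.059 for Ccl19. In the value table they were -0.0019 to 0.14 for Ccl17, -0.029 to 0.33 for Ccl19 and -0.57 to 0.24 for Ccl28, and no other ligand gene changed sign there with a column left out.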

Other observations

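Ppbp and Cklf are chemokines whose names fall outside the rule. Ppbp, a neutrophil attractant that lies beside Cxcl3 and Cxcl5 on chromosome 5, read -0.32 and -2.16 under the label EV-50 against -0.58 and -3.77 under shGR-19 in the scanner files. In the value table its log2 fold change was -1.68 (standard error 0.10, adjusted p = 0.00469 from limma), and it was called. Cklf was at -0.32 in the value table (adjusted p = 0.0515 from limma) and was not called, and Pf4 was well above background on no array.

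Mmp9, a protease that cuts neutrophil-attracting chemokines, read -4.37 and 0.18 under EV-50 against -4.53 and 0.18 under shGR-19. It thus differed between duplicates of both labels and hardly between lines, and its value table log2 fold change was -0.16.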
